A study of Mus musculus with 8 samples.

Results

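Abca5 belongs to a family of membrane pumps that move cholesterol and phospholipids, and the question here was whether its lower level in the hippocampus of mice given repeated ketamine anesthesia was shared by the other lipid transporters of the brain. The 8 genes examined were Abca1, Abca2, Abca3, Abca5, Abca7, Abcg1, Abcg4 and Apoe, picked by symbol from the 20802 genes of the deposited table. The set was chosen on the value of Abca5 in this same contrast. Abca5 is therefore described without a test, and tests are given for the other 7 genes.

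Hippocampal RNA was sequenced from 8 male C57BL/6 mice with no transgene or deletion named in the labels. The 4 mice of the Anesthesia group received ketamine at 35 mg per kg intraperitoneally once a day for 5 days, beginning at PND16, and the 4 mice of the Control group received saline on the same schedule, although the sample titles call them untreated. RNA was taken 1 week after the last injection, and the labels give an age of P28. The library kit is a stranded total RNA kit in the study's methods and another TruSeq kit in the labels, and each library is a separate mouse. In bulk tissue, fewer cells of a type and less RNA per cell cannot be told apart.

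ABC transporters bind and hydrolyse ATP to move lipids across or between the leaflets of membranes. Brain cholesterol is made locally because plasma lipoproteins barely cross the blood-brain barrier, and astrocytes pass it to neurons on particles built around apolipoprotein E. Abca1, Abcg1 and Abcg4 load lipid onto such particles, and the oxysterol-sensing liver X receptors (LXRs) induce Abca1, Abcg1 and Apoe. Abca2, Abca3 and Abca5 are found mainly on lysosomes and related inner membranes, and Abca7 is a close relative of Abca1 known from genetic studies of Alzheimer disease.

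The 7 transporters share the ATP-binding loop called Walker A, whereas no match to it was found in Apoe. The coding strand of the exon that holds the first Walker A motif is printed below for each transporter from the GENCODE M21 transcripts of GRCm38, from 30 bases before the motif to at most 30 after it, or to the exon's end. Capitals mark the codons of the motif. They are shown so that the base composition of Abca5, which is described further on, can be seen beside that of its relatives.
Abca5 (chr11:110306258-110306341, minus strand, exon 12): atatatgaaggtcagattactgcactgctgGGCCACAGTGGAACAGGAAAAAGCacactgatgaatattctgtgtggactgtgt
Abca1 (chr4:53077943-53078004, minus strand, exon 19): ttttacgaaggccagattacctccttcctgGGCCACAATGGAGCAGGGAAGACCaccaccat
Abca7 (chr10:80004491-80004552, plus strand, exon 17): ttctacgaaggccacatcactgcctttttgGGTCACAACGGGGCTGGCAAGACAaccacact
Abca2 (chr2:25439186-25439247, plus strand, exon 20): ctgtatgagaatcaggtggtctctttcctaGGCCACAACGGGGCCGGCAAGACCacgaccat
Abca3 (chr17:24384501-24384576, plus strand, exon 13): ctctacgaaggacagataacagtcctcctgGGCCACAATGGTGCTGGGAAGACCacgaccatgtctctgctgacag
Abcg1 (chr17:31092344-31092426, plus strand, exon 3): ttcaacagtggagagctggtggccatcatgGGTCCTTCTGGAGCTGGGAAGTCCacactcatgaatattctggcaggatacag
Abcg4 (chr9:44281804-44281886, minus strand, exon 3): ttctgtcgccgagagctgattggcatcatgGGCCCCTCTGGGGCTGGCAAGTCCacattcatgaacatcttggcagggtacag

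The motif occurs 2 times in each ABCA protein and 1 time in the shorter Abcg1 and Abcg4, which pair up to work. Abca5 had the lowest GC content of the set at every scale. It was 44.1% in the printed stretch, against 51.8% to 56.6% in the other 6, and 41.3% over the coding sequence, against 51.3% to 62.6% in the other 7 genes. Over the longest transcript it was 39.8% for Abca5, 47.5% for Abca1 and 52.7% to 59.5% for the others.

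Values are normalized counts, that is, estimated reads per gene divided by a factor for each library. Differences between the groups are log2 fold changes (Anesthesia minus Control) from limma on log2(value + 1), with p-values adjusted by the Benjamini-Hochberg method over 18865 genes that averaged at least 10 normalized counts. Of all those genes, 0 (0%) passed with p adjusted at 0.05 and 1513 (8.02%) without the adjustment, numbers that became 0 and 1468 with limma voom. The study's own test was DESeq2, a count model, and it did call genes at an adjusted p under 0.05. The 0 here holds for limma on the deposited values. The groups had no overlapping values in 5.04% of genes, and this was so with the Anesthesia group lower in 2.23%. Normalized totals were 18702634 to 19231119 per mouse, and the spacing of low values places the reads on these genes at approximately 15500000 to 22200000 per library. All 8 genes were expressed well above the minimum, so none was lost to it.

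Abca5 was lower in every mouse of the Anesthesia group than in any mouse of the Control group. The gene (ENSMUSG00000018800) lies on chromosome 11, 110269369 to 110337716, minus strand, and encodes a transporter of lysosomes and late endosomes. Its normalized counts were 1930, 1833, 1993 and 1776 in Anesthesia replicates 1 to 4, and 2296, 2426, 2133 and 2187 in Control replicates 1 to 4. The gap between the groups ran from 1993, the highest Anesthesia value, to 2133, the lowest Control value. The means were 1883 ± 97.3 (Anesthesia) and 2260 ± 129.3 (Control; SD over 4 mice), which is a log2 fold change of -0.26, or a difference of -16.7%.

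The other inner-membrane transporters were on the higher side in the values as deposited, with intervals that also held negative values. After the correction for GC content and length given further on, the log2 fold change was -0.034 in Abca2 and 0.029 in Abca3. Abca2 (ENSMUSG00000026944, chromosome 2, 25428703 to 25448540, plus strand) is abundant in oligodendrocytes and neurons. It had 3479, 3679, 4119 and 3953 normalized counts in Anesthesia replicates 1 to 4, against 2960, 3307, 3685 and 3957 in the 4 Control mice. Control replicate 1 was the lowest of all 8 mice, and Control replicates 3 and 4 lay within the Anesthesia range. Its log2 fold change was 0.14 (95% interval -0.066 to 0.34, adjusted p = 0.706 from limma).

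Abca3 (ENSMUSG00000024130, chromosome 17, 24351950 to 24410201, plus strand) moves phospholipid into lamellar bodies in the lung and is also expressed in brain. It had 1920, 1854, 2427 and 2028 normalized counts in Anesthesia replicates 1 to 4, against 1832, 1817, 1919 and 1874 in the 4 Control mice. Anesthesia replicate 3 stood above all other mice, while Anesthesia replicate 2 was within the Control range. The log2 fold change was 0.14 (95% interval -0.043 to 0.32, adjusted p = 0.673 from limma), and it was 0.055 without Anesthesia replicate 3. The 3′ end of Abca3 shares 5553 bases with D330041H03Rik on the opposite strand, and since it is not given in the sources used here whether counting used strand, the value of Abca3 is uncertain to that extent.

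Among the genes that export lipid from the cell, the values of the groups overlapped in all 4. Abca1 (ENSMUSG00000015243, chromosome 4, 53030787 to 53159895, minus strand), which hands cholesterol and phospholipid to lipid-poor Apoe, had 2026, 1942, 1859 and 1858 normalized counts in Anesthesia replicates 1 to 4, against 1801, 1857, 2088 and 2046 in the 4 Control mice. The 4 Anesthesia values lay inside the Control range. For Abca1 the log2 fold change was -0.018 (95% interval -0.16 to 0.13, adjusted p = 0.948 from limma).

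Abcg1 (ENSMUSG00000024030, chromosome 17, 31057675 to 31117988, plus strand), which adds cholesterol to particles already carrying lipid, had 1008, 1156, 1090 and 1201 normalized counts in Anesthesia replicates 1 to 4, against 1090, 1069, 1185 and 1014 in the 4 Control mice. The highest and the lowest value of the gene both belonged to Anesthesia mice, so the groups were interleaved. On the log2 scale Abcg1 differed by 0.031 (95% interval -0.14 to 0.20, adjusted p = 0.924 from limma).

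Abcg4 (ENSMUSG00000032131, chromosome 9, 44273188 to 44288615, minus strand), the closest relative of Abcg1 and expressed largely in the nervous system, had 462.1, 382.8, 685.5 and 514.5 normalized counts in Anesthesia replicates 1 to 4, against 393.1, 456, 405.7 and 491.7 in the 4 Control mice. Anesthesia replicate 3 was far above the other mice, and Anesthesia replicate 2 was the lowest of all. Between the groups the log2 fold change was 0.20, with a wide interval (95% interval -0.15 to 0.55, adjusted p = 0.742 from limma). It was 0.049 without Anesthesia replicate 3 and 0.33 without Anesthesia replicate 2.

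Abca7 (ENSMUSG00000035722, chromosome 10, 79996494 to 80015572, plus strand), which moves phospholipid and is linked to phagocytosis, had 395.6, 373.1, 486.8 and 436.4 normalized counts in Anesthesia replicates 1 to 4, against 273.7, 355.2, 331.3 and 405.5 in the 4 Control mice. Control replicate 4 lay above 2 of the Anesthesia mice, and the other 3 Control mice lay below all of them. The log2 fold change was 0.32 (95% interval 0.030 to 0.60, adjusted p = 0.62 from limma). Abca7 was the single gene of the 7 with an unadjusted p under 0.05, against 8.02% of all genes, and its direction was opposite to that of Abca5. Its log2 fold change was 0.21 without Control replicate 1.

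Apoe (ENSMUSG00000002985, chromosome 7, 19696109 to 19699188, minus strand), the main lipid acceptor and carrier in the brain, had 18867, 18232, 18716 and 18176 normalized counts in Anesthesia replicates 1 to 4, against 19913, 18389, 20406 and 18924 in the 4 Control mice. The Control mice spread over a wider range, and Control replicate 2 lay among the Anesthesia mice. For Apoe the difference was -0.068 on the log2 scale (95% interval -0.18 to 0.042, adjusted p = 0.726 from limma).

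**Figure D1:**
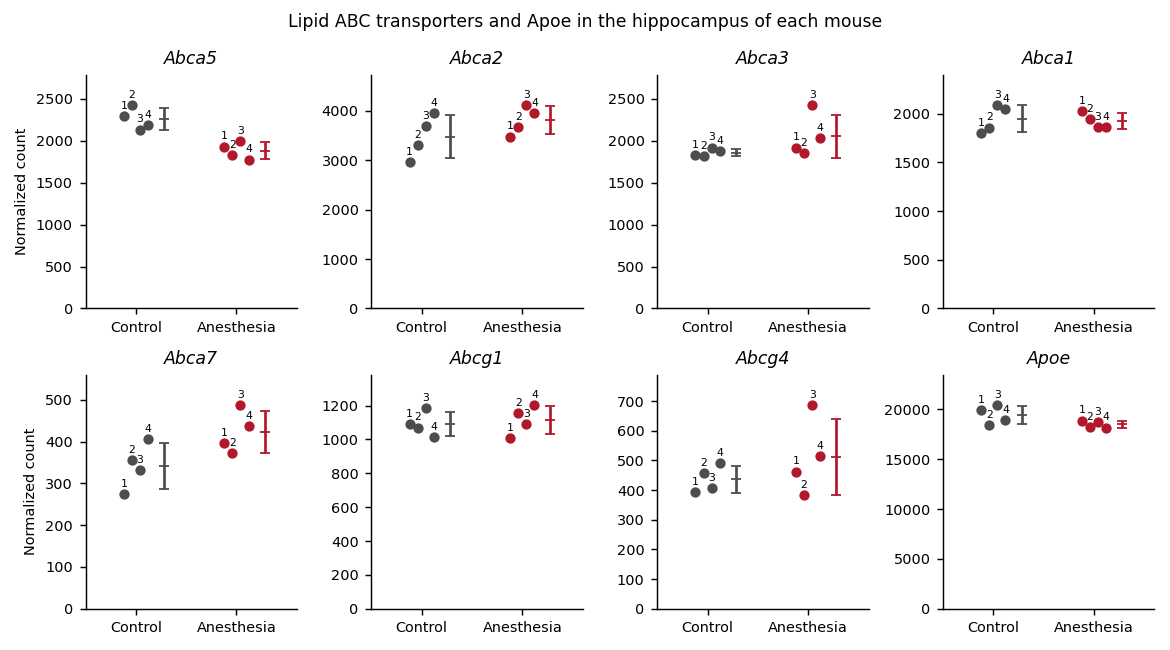
Normalized counts of the 8 genes (vertical axes, each from 0) in the 4 Control and 4 Anesthesia mice. Points are mice with their replicate numbers, and bars are the mean ± SD (n = 4). The groups are separate for Abca5, with 1776 to 1993 against 2133 to 2426, and overlap for the other 7 genes.

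In the values as deposited, most of the set did not lie on the same side as Abca5. Of the 8 genes, 5 had a positive and 3 a negative log2 fold change (Abca5, Apoe and Abca1), with a median of 0.084, and over the 7 genes other than Abca5 the median was 0.14. Without Anesthesia replicate 3 these medians were 0.044 and 0.049, and without Control replicate 1 they were 0.047 and 0.062. Over all genes tested the median was -0.0036, and 50.8% of genes had a negative value. Of the 7 genes, 0 passed in limma with p adjusted at 0.05, 1 passed without the adjustment, and 0 had groups that did not overlap, against 0%, 8.02% and 5.04% of all genes. Lower groups that did not overlap were found in 1 of the 8 genes, Abca5, against 2.23% of all genes, and nothing is read from that count because Abca5 led to the choice of the set.

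The 95% interval did not reach the -0.26 of Abca5 in any of the 7 genes, and its lowest bound was -0.18, in Apoe. This is a description, since the value of Abca5 led to the choice of the set and has an error of its own (standard error 0.063). Smaller decreases lie within the intervals, whose lower bounds were -0.16 in Abca1, -0.14 in Abcg1 and -0.15 in Abcg4. For Abca1 and Apoe, which are LXR targets and partners in lipid export, the intervals correspond to differences from -10.7% to 9.21% and from -11.7% to 2.96%. For Abcg4 and Abca7, which had the lowest levels of the set, they were wider, from -9.81% to 46.4% and from 2.08% to 51.6%.

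**Figure D2:**
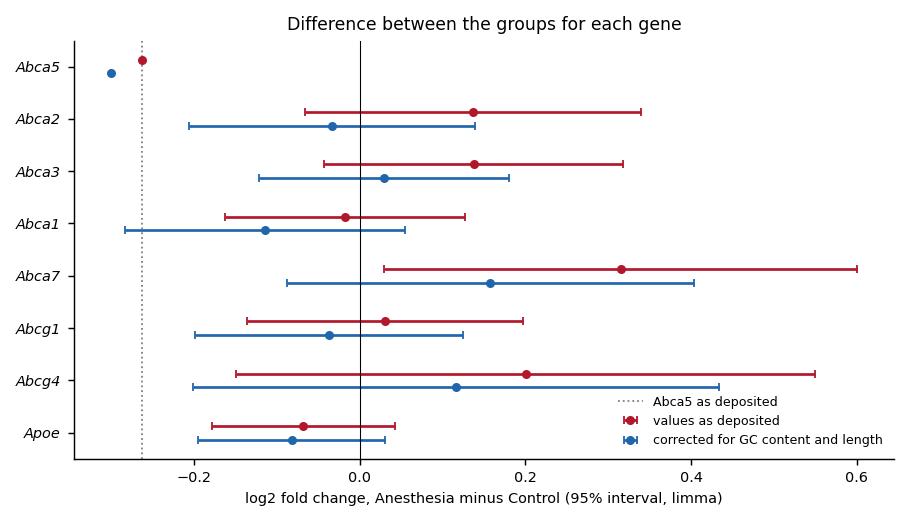
Log2 fold change (horizontal axis, Anesthesia minus Control) of the 8 genes, from the values as deposited (red) and with the GC content and length trend of each library removed (blue). Bars are 95% intervals from limma, Abca5 is shown without one because it was not tested, and the dotted line is its value of -0.26. No red bar reaches the dotted line. After the correction the values of Abca2, Abca3, Abca7 and Abcg4 lie closer to 0, and those of Abca1, Abca5, Abcg1 and Apoe lie further from it.

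Abca7, Abcg4, Abca2 and Abca3, the members with the highest log2 fold changes, have GC-rich transcripts of 54.8% to 58.9%, although Apoe, at 59.5%, was on the lower side. Genes of 60% GC or more had a median log2 fold change of 0.072 over the whole table, those between 40% and 45% had -0.029, and those under 40%, where Abca5 lies, had -0.0095. The median level of GC-rich genes (55% or more) relative to GC-poor genes (under 45%), on the log2 scale and with each gene set against its Control mean, was 0.063, 0.059, 0.098 and 0.073 in Anesthesia replicates 1 to 4 and -0.035, -0.012, -0.013 and 0.052 in Control replicates 1 to 4. The groups did not overlap in this measure of composition. Across the 8 genes Pearson's r between GC content and log2 fold change was 0.764 (n = 8 genes in the same libraries), a value that rests partly on Abca5, on which the set was chosen. It was 0.43 over the 7 genes other than Abca5 and 0.0715 over 18849 genes with a known GC content.

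When the trend of each library on transcript GC content and length was removed, the log2 fold changes of all 8 genes moved downward. The log2 fold change of Abca7 was then 0.16, that of Abcg4 0.12, that of Abca3 0.029, that of Abca2 -0.034 and that of Abcg1 -0.037. Abca1 (47.5% GC, 10262 bases) moved from -0.018 to -0.11, and Apoe (59.5% GC, 1408 bases) from -0.068 to -0.082. GC content and length were removed together, so their parts cannot be told apart here. Abca5 was at -0.30, and its groups still did not overlap. With this correction 5 of the 8 genes had a negative value, with a median of -0.035, against -0.018 over all genes, so the count of directions depends on the correction. The interval of Abca1 then ran from -0.28 to 0.055, which holds the value that Abca5 had before the correction but not the one it had after it. Pearson's r between GC content and the corrected log2 fold change was 0.0014 over all genes, 0.821 over the 8 and 0.54 over the 7. The value over the 8 rests partly on Abca5, and the genes come from the same libraries, so these values are a description. The part of transcript composition or length in these differences was not tested beyond this.

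**Figure D3:**
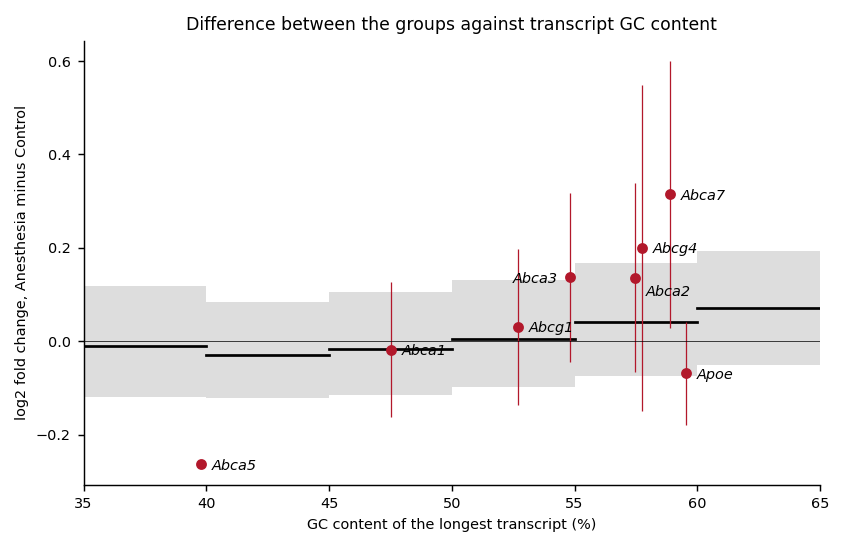
Log2 fold change (vertical axis, Anesthesia minus Control) against the GC content of the longest transcript (horizontal axis, percent) for the 8 genes, with 95% intervals except for Abca5. Black lines and grey bands are the median and the middle 50% of all genes in bins of GC content. The medians run from -0.029 in the bin from 40% to 45% to 0.072 above 60%. Abca5 lies below the band of its bin, and Abca7, Abcg4 and, narrowly, Abca3 lie above theirs.

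Single mice weighed on several genes together. Anesthesia replicate 3 had the highest value of its group in 5 of the 8 genes (Abca2, Abca3, Abca5, Abca7 and Abcg4), and it also had the highest GC-rich level, 0.098. Its median log2 differences from the Control mean were the lowest of all mice for hippocampal field (-0.53) and choroid plexus markers (-3.86). For neuronal markers its median was the highest, 0.16, and for astrocyte and microglial markers it lay among the other mice. Control replicate 1 had the lowest value of its group in 4 of the 8 (Abca1, Abca2, Abca7 and Abcg4), and it had the lowest GC-rich level, -0.035. After each group's mean was subtracted, Abcg4 varied with Abca3 (Pearson r = 0.866) and with Abca7 (r = 0.823), and Abca7 with Abca2 (r = 0.859), over the 8 mice. For Abca5 the r with the other 7 genes was between -0.56, with Abcg1, and 0.38, with Abcg4. These values describe 8 libraries that also share depth and base composition.

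Per kilobase of the longest transcript, Apoe was by far the most abundant of the set, with a median of 13350 normalized counts per kb over the 8 mice, 29.1 times that of the next gene. Abca2 followed with 458 per kb, Abca3 with 293 and Abca5 with 251. The ranges of Abca2 and Abca3 overlapped over the mice, and so did those of Abca3 and Abca5. Abcg1 (187 per kb) and Abca1 (185 per kb) could not be ranked, and Abcg4 (115 per kb) and Abca7 (57.4 per kb) closed the order without overlap. The mean level of Abca5 was 229 ± 11.8 per kb in Anesthesia mice and 275 ± 15.7 in Control mice (SD, n = 4 each), so its place below Abca3 was the same in both.

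Abca5 stands in a cluster of related genes on chromosome 11, all on the minus strand. They lie next to each other as Abca8b, Abca8a, Abca9, Abca6 and Abca5. Reads may be split between related genes where their sequences are close. How close these sequences are was not measured here, so the values of the cluster are uncertain to that extent. Abca6, directly downstream of Abca5, had 100.1 ± 6.42 normalized counts in Anesthesia mice and 100.9 ± 7.0 in Control mice (SD over 4 mice), and its log2 fold change was -0.011. Abca9 was at -0.14 (adjusted p = 0.716 from limma), with 329 ± 19.8 against 363 ± 35.4 (SD, n = 4 each).

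Abca8b, the most abundant neighbour, was at -0.085 with 844 ± 47.5 against 898 ± 88.7 normalized counts (SD, n = 4 each). Abca8a was at -0.28, but its values ranged from 87.7 to 376.3 in Anesthesia mice and from 129 to 246 in Control mice, so that the groups were interleaved. The values of the groups overlapped in all 4 neighbours.

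In all, 10 of the 15 other ABCA and ABCG genes looked for were in the table and 8 passed the minimum; 2 of the 8 were higher and 6 lower, with a median of -0.077, and 0 were called. The smallest p-values were those of Abca17, Abca4 and Abca9. Abca17, which lies beside Abca3 and is read from the opposite strand, had a log2 fold change of 1.14 at a low level, 32.9 ± 12.9 against 15.3 ± 7.41 normalized counts (SD, n = 4 each, adjusted p = 0.62 from limma). Its groups overlapped.

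Abca4, a retinoid-lipid transporter best known from photoreceptors, was at -1.33 (adjusted p = 0.622 from limma). It had 359, 42.7, 81 and 60.8 normalized counts in Anesthesia replicates 1 to 4, against 106.5, 264.9, 353.5 and 310.9 in the 4 Control mice. Its high values were in the 4 libraries that also held much choroid plexus RNA. Ttr, the defining transcript of that tissue, was between 24368 and 61582 normalized counts in Anesthesia replicate 1 and Control replicates 2 to 4, and between 144.8 and 2679 in Anesthesia replicates 2 to 4 and Control replicate 1. All 15 choroid plexus markers had a negative log2 fold change, with a median of -1.88, and their summed level was 4874 to 88905 in Anesthesia mice and 4655 to 105975 in Control mice.

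Abca5 is given here beside the level of choroid plexus RNA. Among the 4 libraries rich in its RNA, Abca5 was 1930 in Anesthesia replicate 1 and 2133 to 2426 in the Control mice, a log2 difference of -0.22. Among the 4 poor ones it was 1776 to 1993 in the Anesthesia mice and 2296 in Control replicate 1, a log2 difference of -0.30. The groups of Abca5 do not overlap, so it must be lower in any split that keeps both groups. Each of these comparisons has 1 mouse on one side, so no test was made. For some members these values lay further apart: Abca7 was at 0.13 among the rich and 0.65 among the poor, Abca2 at -0.065 and 0.40, and Apoe at -0.027 and -0.12, whereas Abca1 was at 0.023 and 0.067. The part of choroid plexus RNA in the differences of the 8 genes was not tested.

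**Figure D4:**
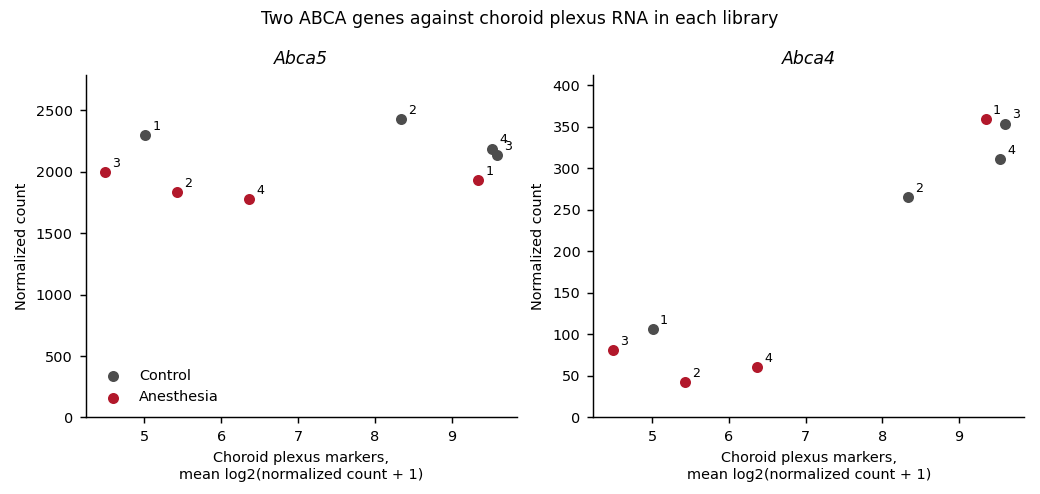
Normalized counts of Abca5 (left) and Abca4 (right) on the vertical axes, from 0, against the mean log2(normalized count + 1) of the 15 choroid plexus markers (horizontal axes) in each mouse, with replicate numbers. Abca4 is between 264.9 and 359 in the 4 libraries with the highest marker level and between 42.7 and 106.5 in the others. Abca5 is lower in the Anesthesia mice on both sides, as any split must give because its groups do not overlap.

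Genes around the 8 were then examined in lists, none of which held a gene with an adjusted p under 0.05 by limma. The LXRs, their partners and classical targets showed no common direction. Of 12 genes, 8 were higher and 4 lower, with a median of 0.055 (-0.018 after the correction for GC content and length), and 1 had an unadjusted p under 0.05. This was Fasn, fatty acid synthase, at 0.16 (-0.033 after that correction, adjusted p = 0.622 from limma before it), with 6168 ± 403.8 against 5519 ± 375 normalized counts (SD, n = 4 each). Nr1h2, the gene of LXR beta, and Scd1, a fatty acid desaturase, were both at 0.19 (adjusted p = 0.651 and 0.669 from limma).

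Of the other lipoprotein proteins and enzymes, 3 were higher and 3 lower of the 6 tested, with a median of -0.063. The median was 0.0063 with no filter on low values. With each mouse left out it ran from -0.12, without Control replicate 1, to -0.014, without Anesthesia replicate 3. Clu, another abundant apolipoprotein of astrocytes, was at 9016 ± 390.1 in Anesthesia and 9888 ± 690.6 normalized counts in Control mice (SD, n = 4 each), and its difference was -0.13 on the log2 scale (adjusted p = 0.634 from limma), next to the -0.068 of Apoe. Lpl, lipoprotein lipase, was at -0.29 and Scarb1, a lipoprotein receptor, at 0.20.

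The receptors and partners of Apoe had a median of 0.23, with 5 of 7 higher and 2 with an unadjusted p under 0.05, against 8.02% of all genes. The median was 0.081 without Control replicate 4, 0.10 without Control replicate 1, 0.11 without Anesthesia replicate 1, and 0.12 without Anesthesia replicate 3 or 4; it was 0.14 when genes needed at least 10 in every library. Lrp1, the large endocytic receptor of Apoe, had 12502, 14087, 14520 and 13158 normalized counts in Anesthesia replicates 1 to 4, against 10956, 11783, 9717 and 11189 in the 4 Control mice. Every Anesthesia mouse was above every Control mouse, as in 530 of all 18865 genes, and the log2 fold change was 0.32 (adjusted p = 0.565 from limma). It was 0.089 after the correction for GC content and length. Lrp8, the Reelin and Apoe receptor of neurons, was at 0.25 (adjusted p = 0.62 from limma), and Vldlr, its relative, was at -0.11. With the same correction the median of the list was also 0.089.

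The list of cholesterol synthesis enzymes and their SREBP regulators was spread around 0. Of 22 genes, 13 were higher and 9 lower, with a median of 0.014 and a range from -0.081 to 0.23; the median was -0.013 without Anesthesia replicate 4 and -0.024 without Control replicate 1. The smallest p-values belonged to Lss, lanosterol synthase, at 0.23 (adjusted p = 0.62 from limma), Srebf2, the master regulator of the pathway, at 0.17 (0.055 after the correction), and Mvd, mevalonate diphosphate decarboxylase, at 0.15.

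Genes of cholesterol turnover and lysosomal handling, among which Abca5 would stand by its place in the cell, had a median of -0.047, with 4 of 12 higher and 8 lower. Lipa, lysosomal acid lipase, was at -0.26 (384 ± 26.8 against 463 ± 49.8 normalized counts, SD, n = 4 each, adjusted p = 0.62 from limma), a size like that of Abca5, with overlapping groups. In the opposite direction, Cyp46a1, which makes the oxysterol by which neurons dispose of cholesterol, was at 0.29, and Stard4, a carrier of sterol between membranes, was at 0.32. Both had an adjusted p of 0.62 from limma.

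**Figure D5:**
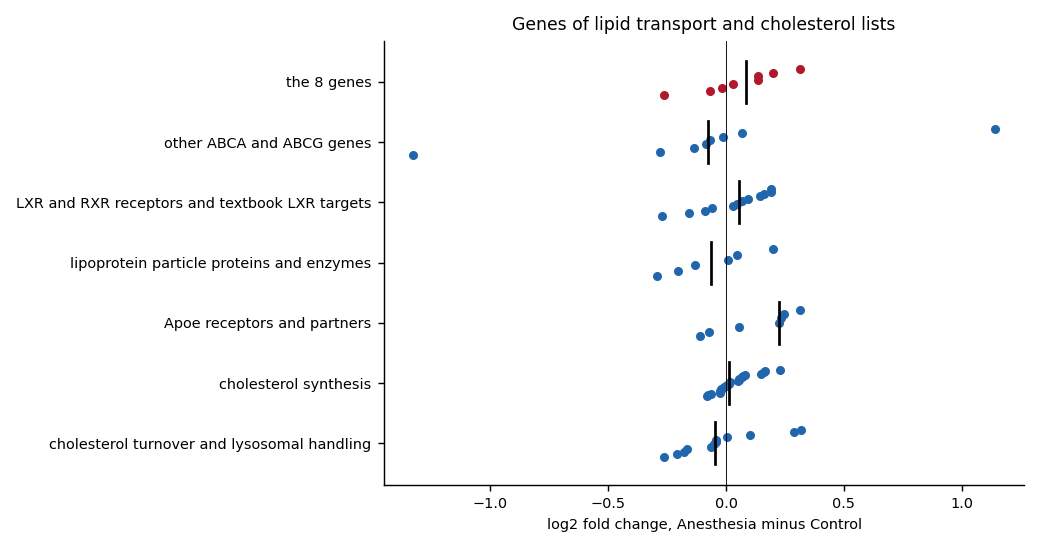
Log2 fold change (horizontal axis, Anesthesia minus Control) of each tested gene in the 8-gene set (red) and in the lists around it (blue), with a black bar at the median. The medians run from -0.077 for the other ABCA and ABCG genes to 0.23 for the receptors and partners of Apoe, and the points at -1.33 and 1.14 are Abca4 and Abca17.

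The tissue label fits its markers, since neuronal, astrocytic and hippocampal field genes were all detected. Levels of the cells that express the 8 genes are given beside them. The 10 markers of astrocytes, the main source of Apoe, had a median log2 fold change of -0.099 with 3 higher and 7 lower. Their summed level was 112437 to 125548 in Anesthesia mice and 110142 to 116746 in Control mice. Most of that sum is Slc1a2, which averaged 81456 (Anesthesia) and 72472 (Control) and was on the higher side at 0.17. The groups did not overlap in 2 of the 10, both lower, against 2.23% of all genes, and in 0 that were higher. Among the 10 neuronal markers the groups did not overlap in 2, both higher, and among the 10 microglial markers in 1, also higher. Over all genes this was so in 530 of 18865. The remaining marker lists held 0 genes without overlap. The 10 oligodendrocyte markers were all on the lower side, with a median of -0.065, and their sum varied widely in both groups, from 113742 to 194956 and from 102150 to 185517. That median turned with single mice: it was 0.020 without Anesthesia replicate 3, 0.052 without Control replicate 3, 0.011 without Control replicate 4, and -0.23 without Anesthesia replicate 4 or Control replicate 1. With the choroid plexus covariate it was 0.098. Microglial markers had a median of 0.053 (sums of 6454 to 7238 and 6360 to 7477), neuronal ones 0.025 (102446 to 111605 and 98673 to 106748), hippocampal field ones -0.069 (0.048 without Anesthesia replicate 3 and 0.034 without Control replicate 1) and endothelial ones -0.0067. None of these markers had an adjusted p under 0.05 by limma, and the part of cell makeup in the values of the 8 genes was not tested.

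After each group's mean was subtracted, the genes most like Abca5 over the 8 mice, out of 12248 with a mean of at least 100 normalized counts, were Cenpt, a kinetochore gene (Pearson r = 0.970), Osbpl8, an oxysterol-binding protein relative (r = 0.966), and Pak6, a kinase gene (r = 0.957). Their own log2 fold changes between the groups were 0.099, 0.016 and 0.095. The genes most like Apoe were Gm28043 (r = 0.972), Spryd4 (r = 0.955) and Usp10 (r = 0.940). With 8 mice and this many genes, such values are a description of these libraries.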

How the data were processed

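Hippocampal RNA of 8 mice (4 per group) was analysed. The authors ran Salmon (v1.1.0) with GC bias correction on GRCm38, imported gene values with tximport and divided them by DESeq2 (v1.30.1) size factors, so what was deposited is a normalized signal rather than counts of reads. In each library 60.5% to 74.8% of low values lay within 0.1 of a whole read, so reads were not recovered and limma was used, as planned for values of this kind. Here limma (version 3.58.1, R version 4.3.3) was fitted with a mean-variance trend to log2(value + 1), which understates changes of low genes, over 18865 genes with a mean of at least 10; 1937 were left out. Symbols, lengths and GC content came from GENCODE M21, which held 20784 identifiers and lacked 18. Scripts were tested on simulated data. The members and lists were chosen with earlier results of these data known. Besides the 8 genes, the neighbours of Abca5 and the 3 genes of each pathway list with the smallest p were named. For cell type markers list values are given, and only Ttr and Slc1a2 are named, after their values were seen. Genes most like Abca5 and Apoe were ranked by Pearson's r among genes with a mean of at least 100. Alternatives were a pseudocount of 0.1, other filters and scalings, limma voom, a replicate block, a loess correction (span 0.5) for GC content and length, a choroid plexus covariate and each mouse left out in turn; comparisons within libraries rich or poor in choroid plexus RNA were added after seeing the data.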

Additional observations from a re-analysis of the deposited data

Results flagged for a closer look

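In 2 of 42 groups of mice examined (the 8 genes and the lists, each in both groups), 1 mouse lay far from the others of its group by Dixon's criterion, and chance gives about 1 in 20, or 2.1. Values are the median over a list of the log2 difference of each gene from its Control mean. Over the other ABCA and ABCG genes, Anesthesia replicate 2 was at -0.17 and the other Anesthesia mice between -0.066 and -0.063. Over the microglial markers, Control replicate 4 was at 0.18 and the other Control mice between -0.097 and -0.051. None of the 8 genes met the criterion in either group.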

How the results depend on the processing

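The direction of Abca3, Abca7, Abcg4 and Apoe was the same under all alternatives. That of Abca5 was too, but its groups do not overlap, so leaving out a mouse or splitting the libraries could not have reversed it. With each mouse left out, the log2 fold change of Abca5 was -0.29 to -0.23, that of Apoe -0.094 to -0.044, that of Abca7 0.21 to 0.40, that of Abca2 0.062 to 0.20, that of Abca3 0.055 to 0.18 and that of Abcg4 0.049 to 0.33. The values near 0 changed sign: Abca1 ranged from -0.055 to 0.017 (0.0067 without Control replicate 4) and Abcg1 from -0.0067 to 0.077 (-0.0032 without Control replicate 4). The number of the 8 genes that were lower was 3, or 2 to 4 with a mouse left out. After the correction for GC content and length, with or without the replicate block, Abcg1 was at -0.037, Abca2 at -0.034 and 5 genes were lower. With the choroid plexus covariate Abca1 was at 0.038. Within libraries rich in choroid plexus RNA, Abca1 was at 0.023, Abcg1 at -0.11 and Abca2 at -0.065, and within poor ones Abca1 was at 0.067, Abca7 at 0.65 and Abca2 at 0.40; the cause was not tested.

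Genes with an adjusted p under 0.05 numbered 0 under all settings but 1: without Control replicate 1 there were 2, mt-Nd4l and Gm10222, named after their values were seen. Replicate numbers do not pair the mice (correlations of -0.242, -0.109, -0.182 and 0.019 between same-numbered mice). With the replicate block, 0 genes were called and the log2 fold changes were as before, -0.26 for Abca5 and 0.32 for Abca7; genes with an unadjusted p under 0.05 numbered 1084 instead of 1513. With 4 mice a group, intervals for Abcg4 and Abca7 remain wide, and the depth of these libraries is known only approximately.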
